A study of Mus musculus with 41 samples.

Results

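Uterine fragments from mice with the Nmur1-driven Cre (Nmur1iCre-eGFP, Cre controls) were grown in ILC2-deficient hosts (Nmur1iCre-eGFP Id2fl/fl) and set against deficient lesions that had not been transferred between genotypes. The members were chosen by their titles, and they were 8 of the 41 libraries of the series: 4 Cre-control fragments in deficient hosts and 4 deficient lesions. All 8 hosts carried both the Cre and the floxed Id2 alleles, all 8 were given IL-33, and only the fragment's genotype was meant to differ. A uterine punch of 4 mm was glued inside the peritoneal cavity of a mouse aged 12 to 16 weeks, and 3 injections of 1 µg IL-33 were given over 6 days from day 7. The host of a deficient lesion that was not transferred was taken to have the fragment's genotype. The transferred group differs from the deficient group also in having been moved across genotypes, and its library names form a run of numbers of their own, so that fragment genotype, transfer and run cannot be told apart.

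Group 2 innate lymphoid cells (ILC2s) are tissue-resident lymphocytes that answer IL-33 through its receptor chain ST2 (Il1rl1) with the type 2 cytokines interleukin-5 and interleukin-13. Interleukin-5 sustains eosinophils, and interleukin-13 turns on chitinase-like and resistin-like proteins in macrophages and eotaxins in stroma. Nmur1 encodes the neuromedin U receptor, which ILC2s carry, and Id2 is the inhibitor of E proteins that innate lymphoid cells need to develop. In the deficient mice Id2 is deleted only where the Nmur1-driven Cre is active, so epithelium, stroma and other cells of fragment and host keep Id2. A lesion holds cells of the fragment and cells that came from the host, and the comparison asks whether the genotype of the graft changes the lesion when the host has no ILC2s.

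Library totals were 28924819 to 48096788 counts in the transferred group and 30349580 to 43022427 in the deficient group. Levels are in CPM, the counts of a gene relative to a TMM-scaled library total. Some libraries stood apart in their tissue makeup. The 17 genes of the endometrial epithelium list, such as the keratins Krt8 and Krt18, took 0.003% of counts in transferred replicate 1 and 0.049%, 0.280% and 0.050% in replicates 2 to 4, against 0.097% to 0.549% in deficient lesions. The 16 skeletal muscle genes took 17.8% of counts in transferred replicate 1, against 1.54% to 13.0% in deficient lesions. The 14 liver genes took 3.26% of counts in deficient replicate 2 and at most 0.074% in the other 7 libraries. The 12 T cell genes took 0.060% of counts in transferred replicate 3 and 0.002% to 0.003% in the other 7 libraries.

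The label of each fragment was checked with transcripts that track the mouse line. They were chosen on 14 libraries of floxed lines and 7 of wild-type mice that enter no fragment comparison, by a lowest value in one line over 2 times the highest in the other, and 23 transcripts passed: 9 high in wild type and 14 high in the floxed lines. The floxed libraries of that choice included 4 controls without the Cre, so the transcripts were chosen to follow the line and not the Cre. Treatment was not uniform among the libraries of that choice. Some of the floxed libraries were deficient lesions given PBS in place of IL-33. Other deficient lesions, and some of the wild-type lesions, were from mice given IL-33 and added ILC2s. In 21 of the 23, the Cre controls were separate from the 8 deficient lesions given IL-33, and a library's position was set to 0% at the mean of these 8 and to 100% at the mean of the Cre controls. The library labelled transferred replicate 1 lay at a median of -0.494%, which is inside the range of the deficient lesions themselves, -2.80% to 2.35%. Transferred replicates 2, 3 and 4 lay at 26.3%, 33.8% and 48.8%. In the reverse transfer, deficient fragments in Cre-control hosts lay at 99.7%, 94.5%, 80.7% and 79.5%. By these medians, every library of both transfers was nearer to its host's line than to its fragment's. In transferred replicate 4, however, 9 of the 21 transcripts were nearer to the fragment's line, and the 2 kinds of transcript differed. Of the 7 that are high in wild type, Gm16867 lay at 43.8% in that library and the others at 62.5% or more. The 14 that are high in the floxed lines ran from 5.75% to 76.6% there. Gm6969, a pseudogene 0.457 Mb from Id2, had 23.3, 15.1, 15.6 and 11.1 CPM in transferred fragments, against 18.2, 18.0, 20.8 and 22.7 CPM in deficient lesions, and averaged 1.06 CPM in Cre controls. Single transcripts did not all order the libraries as the medians did. The library labelled transferred replicate 1 therefore goes against its fragment label in these transcripts. So does replicate 1 of the reverse transfer, at 99.7% beside Cre controls at 100% to 101%. Whether either library held little fragment tissue or was mislabelled was not tested. The number of called genes is also given without each of them. For transferred replicate 1, the list members that were called once it was left out are given too.

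**Figure D1:**
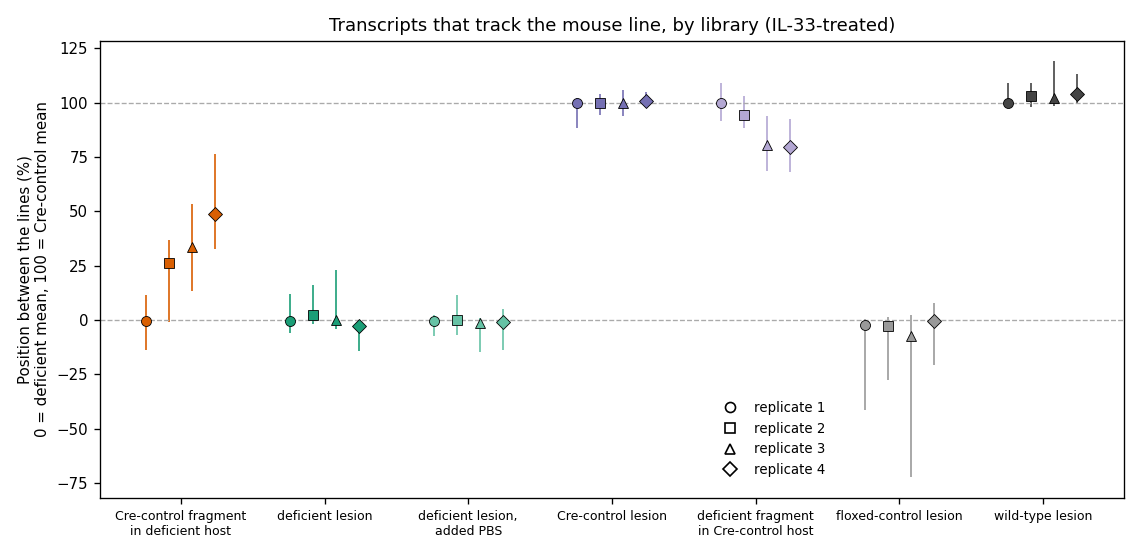
Position of each IL-33-treated library between the deficient lesions (0%) and the Cre controls (100%) on 21 line-tracking transcripts; points are medians over transcripts and bars run from the lower to the upper quartile, with n = 4 libraries a group. The 4 Cre-control fragments in deficient hosts sit between -0.494% and 48.8%, and the 4 deficient fragments in Cre-control hosts between 79.5% and 99.7%.

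In all, 10 genes passed the test between Cre-control fragments in deficient hosts and deficient lesions, 8 higher and 2 lower, of 21249 tested (edgeR quasi-likelihood test, Benjamini-Hochberg adjusted p under 0.05). That is 0.0471% of genes, with 0.0376% higher and 0.00941% lower, and 2332 genes had an unadjusted p under 0.05. Of the 8 genes that were higher 5 are line-tracking transcripts, all of them high in wild type, so that 21.7% of the 23 were called. Gm21451, a pseudogene on chromosome 14 (GRCm38, 69390854 to 69480287), had 0.0511, 0.471, 0.852 and 0.976 CPM in transferred fragments and no count in any deficient lesion. It was at least 30.6-fold higher against a floor of 3 counts over the group (adjusted p = 0.00205). It lies inside Gm16867, which is on the other strand and also tracks the line (log2 fold change 4.08 ± 0.98, adjusted p = 0.0991), and reads of the pair cannot be told apart here. Gm47357, a non-coding transcript inside an intron of Hdac9 on chromosome 12 (34623907 to 34628638), had 0, 0.628, 0.609 and 1.06 CPM in transferred fragments and no count in deficient lesions, a rise of at least 30.6-fold (adjusted p = 0.00788). Both were found in transferred replicates 2 to 4 and were at or close to 0 in replicate 1.

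Gm15446, annotated as protein-coding on chromosome 5 (109923400 to 109943936), had 0, 1.26, 2.43 and 2.85 CPM in transferred fragments, against 0.0443, 0.0306, 0.0267 and 0.0652 CPM in deficient lesions. Its log2 fold change was 5.16 ± 0.82 (SE, adjusted p = 0.0034), and Cre controls averaged 4.52 CPM. Replicate 1 had no count of it, while the other 3 transferred libraries stood above all 4 deficient lesions. 5730507C01Rik on chromosome 12 (18514510 to 18535254) had 0.408, 0.628, 2.10 and 1.53 CPM in transferred fragments, against 0.0664, 0.0613, 0.294 and 0.0434 CPM in deficient lesions (log2 fold change 3.31 ± 0.57, adjusted p = 0.00788). All 4 transferred libraries lay above the 4 deficient ones. 1700030C10Rik, a non-coding transcript on chromosome 12 (20804381 to 20815779), had 0.102, 0.718, 0.852 and 1.77 CPM in transferred fragments, against 0.0443, 0.153, 0.214 and 0.0869 CPM in deficient lesions (log2 fold change 2.79 ± 0.55, adjusted p = 0.0391). Here too, transferred replicate 1 lay within the deficient range. 2410018L13Rik, another non-coding transcript of chromosome 12 that is high in wild type, missed the threshold with a log2 fold change of 2.18 ± 0.45 (adjusted p = 0.0592).

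The other 5 called genes do not track the line. Gm36931 and C230085N15Rik are transcripts of unproven type in the annotation that lie inside Satb1 on chromosome 17 (51736187 to 51833290) and on its strand, and Satb1 encodes a chromatin organiser known from developing T cells. Gm36931 had 2.37, 2.71, 7.97 and 3.40 CPM in transferred fragments, against 0.974, 1.01, 1.68 and 0.999 CPM in deficient lesions (log2 fold change 1.82 ± 0.34, adjusted p = 0.0234). C230085N15Rik had 3.37, 2.94, 8.16 and 4.35 CPM in transferred fragments, against 1.71, 1.62, 1.74 and 1.48 CPM in deficient lesions (1.52 ± 0.29, adjusted p = 0.0324). Neither overlapped between the groups, and in both replicate 3 was the highest. Satb1 itself had 64.9, 43.5, 67.4 and 56.5 CPM in transferred fragments, against 26.2, 21.6, 47.6 and 21.9 CPM in deficient lesions, and missed the threshold at 0.99 ± 0.26 (adjusted p = 0.106). Reads shared between Satb1 and the 2 transcripts inside it cannot be told apart here.

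Tspoap1, which encodes a large adaptor protein that binds the mitochondrial translocator protein and synaptic RIM proteins, had 4.57, 8.26, 12.5 and 7.94 CPM in transferred fragments, against 3.72, 2.67, 3.82 and 3.63 CPM in deficient lesions (log2 fold change 1.26 ± 0.24, adjusted p = 0.0234). Replicate 1 was again the lowest of the transferred libraries, though above all deficient ones. Ffar4, the receptor for long-chain fatty acids (chromosome 19, 38097071 to 38114263), fell to 0.893, 0.987, 0.822 and 0.633 CPM in transferred fragments, against 2.5, 1.93, 1.95 and 4.82 CPM in deficient lesions (-1.75 ± 0.25, adjusted p = 0.0015). Susd4, a complement regulator, fell to 2.12, 2.60, 1.92 and 1.71 CPM in transferred fragments, against 3.48, 4.93, 4.48 and 4.3 CPM in deficient lesions (-1.04 ± 0.20, adjusted p = 0.037). The groups are separate for both genes, and no transferred library stands apart in either.

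**Figure D2:**
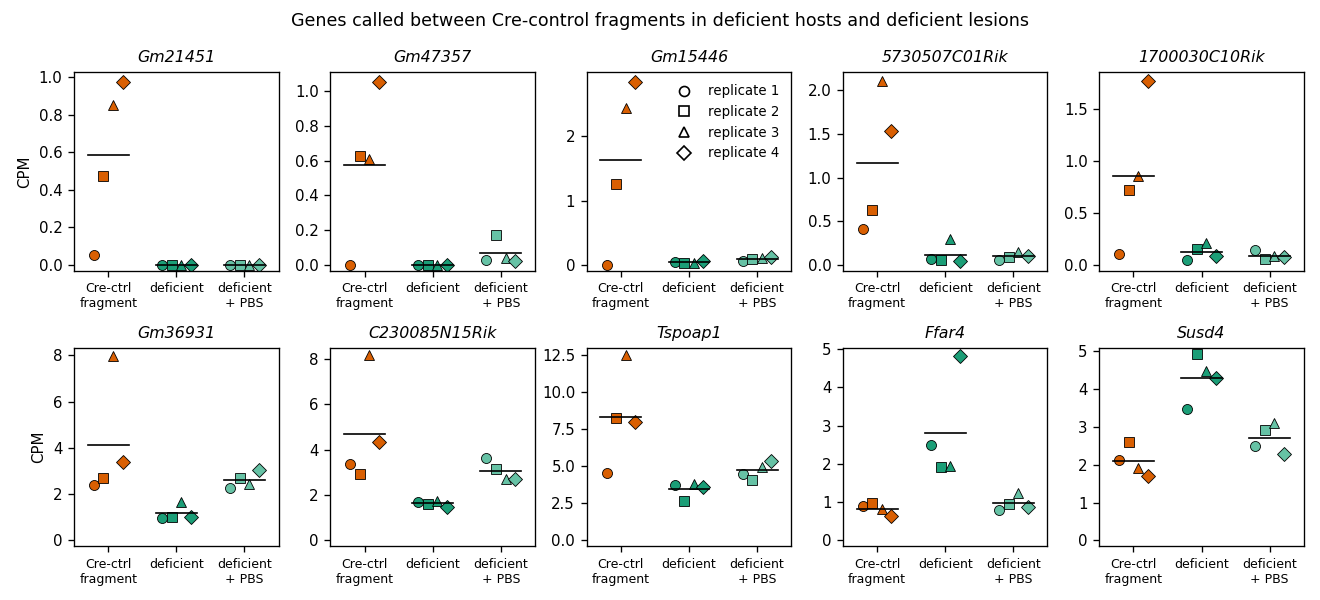
CPM of the 10 called genes in each library, with a line at the group mean: Cre-control fragments in deficient hosts, deficient lesions, and deficient lesions given IL-33 and added PBS (n = 4 each). In the top row, transferred replicates 2 to 4 lie above both deficient groups; in the bottom row, Ffar4 is as low in the second deficient group (0.801 to 1.24 CPM) as in transferred fragments.

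The same 4 transferred libraries were also set beside a second group of 4 deficient lesions, which had received IL-33 and added PBS. The 2 comparisons share the transferred libraries, so only their values are given side by side. Against the second group 4 genes passed (0.0188% of 21249), all of them higher and all of them line-tracking: Gm21451, with no count in any of those lesions, Gm15446 (log2 fold change 4.06 against the second group), 5730507C01Rik (3.50) and 1700030C10Rik (3.20). Ffar4 was at 0.801, 0.953, 1.24 and 0.884 CPM in the second deficient group, and its log2 fold change against that group was -0.22 (adjusted p = 0.918). Ffar4 also differed between the 2 deficient groups, which have the same genotypes, with the group given added PBS lower than the other (-1.53, adjusted p = 0.00902). It was 1 of 3 genes called between them (0.0141% of genes). Against the second group Susd4 had a log2 fold change of -0.37 (adjusted p = 0.752), Tspoap1 0.82 (0.428), Gm36931 0.65 (0.705) and C230085N15Rik 0.63 (0.647).

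Which genes were called depended on single libraries. Without transferred replicate 1, 121 genes were called higher and 13 lower, without replicate 2 161 in all, without replicate 4 185, and without replicate 3 only Ffar4, Gm15446, Gm21451 and Gm47357. Without deficient replicate 1, 2 or 4, 3 genes were called each time, and without replicate 3 16. Ffar4, Gm15446 and Gm21451 were called in each of these 8 fits. With the 8 libraries fitted alone no gene was called by edgeR, though 1474 had an unadjusted p under 0.05. In the model of all 41 libraries DESeq2 called 243 genes and limma-voom called Ffar4 alone.

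Id2 did not pass the test. Id2 had 37.4, 54.3, 56.3 and 33.6 CPM in transferred fragments, against 58.1, 51.3, 38.3 and 44.9 CPM in deficient lesions (log2 fold change -0.08 ± 0.26, adjusted p = 0.935), and the groups overlapped throughout. This checks no label, because whole lesions express Id2 in many cells that lack the Cre. Around Id2 on chromosome 12 (25093799 to 25097140), 1 of 56 genes within 5 Mb was called (1.79%), 2 of 61 genes 5 to 10 Mb away (3.28%), none of 68 genes 10 to 20 Mb away, and none of 694 genes farther away. On other chromosomes it was 7 of 19938 genes (0.0351%), and none of 432 genes with no position. The 3 called neighbours of Id2 are 5730507C01Rik, 1700030C10Rik and Gm47357. Of the 23 line-tracking transcripts 12 lie on chromosome 12, 10 of them within 10 Mb of Id2. The 6 within 10 Mb of Id2 that are high in the floxed lines had log2 fold changes from -1.03 ± 0.65 for Gm48643 to 0.44 ± 0.55 for Gm40847, and none was called. Cox7a2l, a respiratory chain subunit gene whose level also differs with the line, had 46.4, 46.7, 54.2 and 48.6 CPM in transferred fragments, against 41.5, 35.4, 43.9 and 43.1 CPM in deficient lesions (0.26 ± 0.10, adjusted p = 0.343). The transferred values lay above the deficient ones and below the mean of 76.9 CPM in Cre controls.

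**Figure D3:**
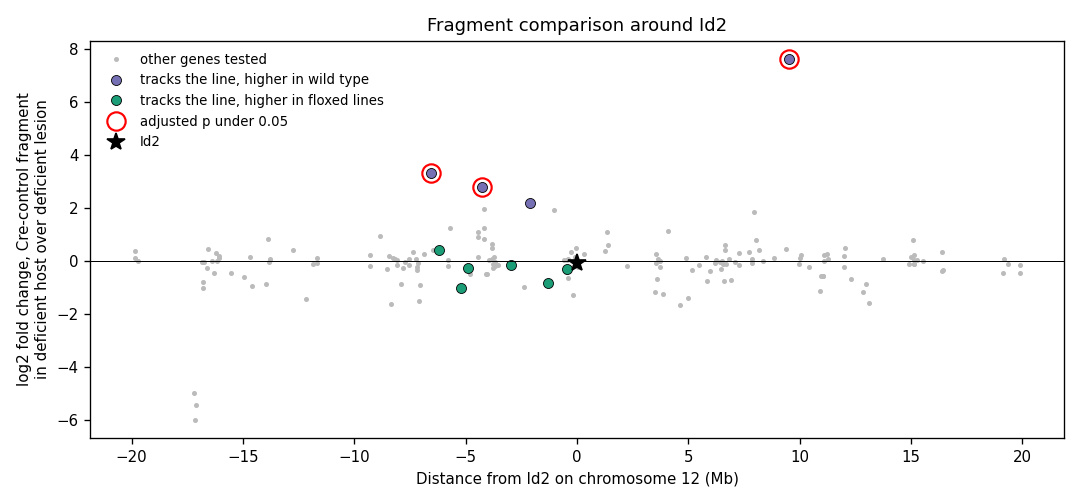
Log2 fold change of Cre-control fragments in deficient hosts over deficient lesions for genes within 20 Mb of Id2, by distance from Id2 on chromosome 12; line-tracking transcripts are coloured and the 3 called genes ringed. The value of Gm47357 is fitted against a group with no counts and depends on the prior count, and the liver gene Apob is among the 3 genes below -4.

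Of 20 ILC2 genes and 22 type 2 response genes measured, none passed the test in either direction. Their median log2 fold changes were 0.44 and 0.40, against 0.01 over all genes. At an unadjusted p under 0.05, 7 ILC2 genes were higher and 1 was lower, and 5 type 2 genes were higher and 1 was lower, where 6.48% of all genes were higher and 4.49% lower. Il5 had 0.204, 0.0897, 0.122 and 0.264 CPM in transferred fragments, against 0.0664, 0.0613, 0 and 0.0217 CPM in deficient lesions (2.10 ± 0.60, adjusted p = 0.134). Il13 had 0.128, 0.112, 0.213 and 0.211 CPM in transferred fragments, against 0.0443, 0.0306, 0.0534 and 0.0869 CPM in deficient lesions (1.53 ± 0.63, adjusted p = 0.352). For both cytokines every transferred library was above every deficient one, as 1.98% of all genes were. This did not hold against the second deficient group: it had 0.0594, 0.0577, 0.0419 and 0.126 CPM of Il5 and 0.0594, 0.173, 0.251 and 0.0505 CPM of Il13, which overlap the transferred values. The log2 fold changes against it were 1.22 ± 0.56 for Il5 (adjusted p = 0.644) and 0.27 ± 0.57 for Il13 (adjusted p = 0.956), and the type 2 list had 11 positive and 11 negative values. Both stayed far below the Cre controls' own lesions, which averaged 1.21 CPM of Il5 and 2.51 CPM of Il13. Nmur1 was close to its detection limit, with 0, 0.0673, 0 and 0.185 CPM in transferred fragments, against 0.199, 0.306, 0 and 0.239 CPM in deficient lesions, and averaged 0.954 CPM in Cre controls. In whole lesions, fewer cells of a type and less RNA per cell cannot be told apart.

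Other ILC2 markers were highest in 1 library. Gata3, the transcription factor that ILC2s share with T helper 2 cells, had 2.5, 2.56, 14.4 and 2.24 CPM in transferred fragments, against 2.41, 1.56, 2.16 and 2.65 CPM in deficient lesions (1.3 ± 0.39, adjusted p = 0.155). Without transferred replicate 3, whose T cell genes were also the highest, its log2 fold change was 0.14. Klrg1, a receptor of activated ILC2s and effector T cells, had 1.23, 0.897, 4.38 and 1.00 CPM in transferred fragments, against 1.35, 0.705, 0.988 and 1.09 CPM in deficient lesions, and its difference of 0.85 ± 0.43 (adjusted p = 0.47) was -0.003 without replicate 3. Il1rl1 had 9.75, 10.6, 17 and 9.71 CPM in transferred fragments, against 14.5, 7.94, 8.94 and 7.67 CPM in deficient lesions, with a mean of 56.6 CPM in Cre controls. The groups overlapped for all 3 genes. Without transferred replicate 2, Il2ra, a chain of the interleukin-2 receptor, was called (adjusted p = 0.0443), and without replicate 4 both Il2ra and Gata3 (adjusted p = 0.0444 for Gata3), while without replicate 1 or 3 no ILC2 gene was. Il17rb, the IL-25 receptor chain, had 0.434, 0.718, 1.8 and 0.528 CPM in transferred fragments, against 3.54, 7.11, 4.88 and 4.65 CPM in deficient lesions (-2.54 ± 0.84, adjusted p = 0.204). It was the 1 ILC2 gene of the 20 whose transferred values all lay below the deficient ones, as 1.75% of all genes did. In the other direction, 3 of the 20 lay above the deficient lesions in every transferred library, as 1.98% of all genes did. Against the second deficient group its log2 fold change was -0.92 ± 0.81 (adjusted p = 0.889).

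**Figure D4:**
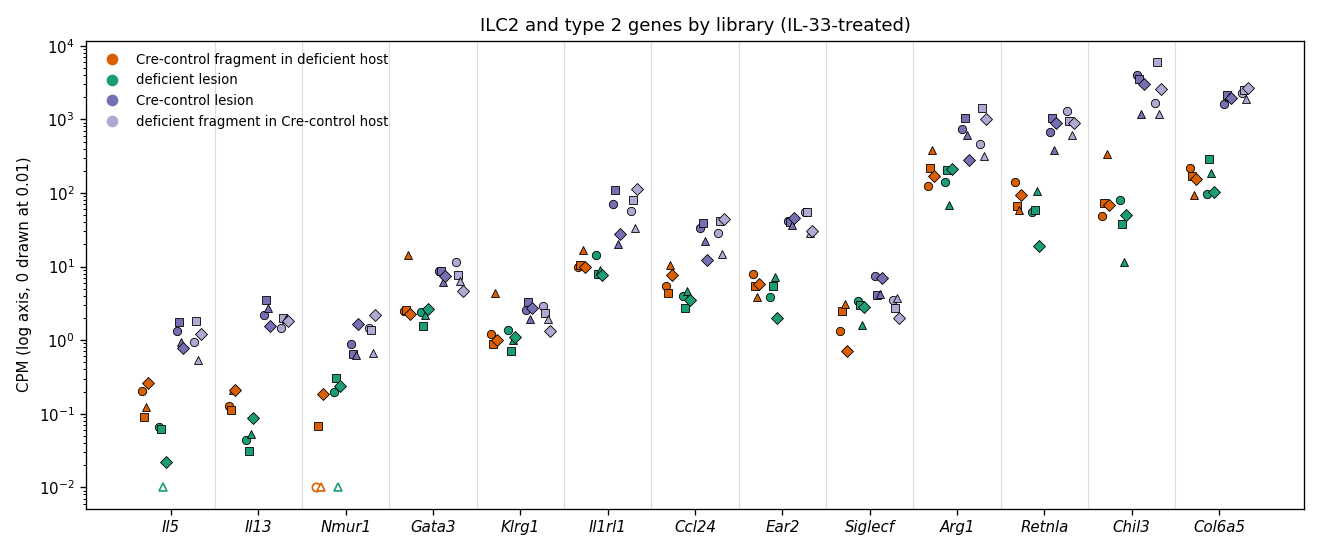
CPM (log axis) of ILC2 and type 2 genes in each library of 4 groups, with n = 4 each; open symbols mark values of 0, drawn at 0.01. For Il5, Il13, Il1rl1, Ear2, Chil3, Retnla and Col6a5, Cre-control fragments in deficient hosts sit below both groups with Cre-control hosts.

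Among genes tied to the type 2 response, Chil3, Retnla, Arg1 and Col6a5 overlapped between the groups. Chil3 and Col6a5 lay below the mean of the Cre controls in every transferred library. Chil3, a chitinase-like product of macrophages exposed to type 2 cytokines, had 49.0, 72.8, 334 and 68.0 CPM in transferred fragments, against 79.3, 37.3, 11.6 and 49.8 CPM in deficient lesions (1.56 ± 0.91, adjusted p = 0.548), while Cre-control lesions averaged 2928 CPM. Replicate 3 stood above all others and the remaining 7 libraries overlapped. Retnla, a resistin-like product of those macrophages, had 139, 66.7, 58.4 and 95.1 CPM in transferred fragments, against 54.4, 58.0, 108 and 19.2 CPM in deficient lesions (0.58 ± 0.76, adjusted p = 0.827). Arg1, the arginase of these macrophages, had 124, 221, 382 and 168 CPM in transferred fragments, against 140, 202, 69.2 and 212 CPM in deficient lesions (0.52 ± 0.65, adjusted p = 0.82). The groups overlapped for both genes. Of the eotaxins, which draw eosinophils, Ccl11 differed by -0.32 ± 0.34 (adjusted p = 0.788) and Ccl24 by 0.91 ± 0.47 (adjusted p = 0.477). Ear2, an eosinophil ribonuclease, differed by 0.32 ± 0.37 (adjusted p = 0.802) and Siglecf, an eosinophil lectin, by -0.51 ± 0.35 (adjusted p = 0.622). No gene of the eosinophil list was called. The 7 measured had a median log2 fold change of 0.32. Col6a5, a collagen VI chain that is high in ILC2-competent lesions of this series, had 218, 168, 95.1 and 155 CPM in transferred fragments, against 97.5, 293, 187 and 104.2 CPM in deficient lesions (-0.10 ± 0.48, adjusted p = 0.963), with a mean of 1927 CPM in Cre controls. The sign of the Col6a5 difference changed when single libraries were left out.

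Both chemokine ligands of the receptor CCR4 were above the deficient lesions in every transferred library, as 1.98% of all genes were. Ccl22 had 7.58, 8.32, 36.9 and 8.07 CPM in transferred fragments, against 5.56, 1.62, 5.02 and 3.84 CPM in deficient lesions (1.92 ± 0.46, adjusted p = 0.084). Ccl17 had 0.587, 0.763, 1.64 and 0.659 CPM in transferred fragments, against 0.133, 0.0306, 0.454 and 0.282 CPM in deficient lesions (1.99 ± 0.62, adjusted p = 0.179). Replicate 3 was the highest for both. Ccl22 was called without transferred replicate 1 (2.14, adjusted p = 0.0321), 2 or 4, and without replicate 3 its log2 fold change was 0.98 (adjusted p = 0.461).

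T cell genes were high in 1 transferred lesion. The 12 T cell genes measured summed to 36.2, 34.0, 528 and 30.3 CPM in transferred fragments, against 27.5, 16.9, 28.8 and 24.3 CPM in deficient lesions. All 12 were higher at an unadjusted p under 0.05, as 6.48% of all genes were. Their median log2 fold change was 3.08, and none passed the test across all genes. Cd8a, the co-receptor of cytotoxic T cells, had 1.63, 1.59, 68.8 and 1.00 CPM in transferred fragments, against 0.841, 0.276, 0.961 and 0.543 CPM in deficient lesions (4.79 ± 1.03, adjusted p = 0.0691). Its high value was that of replicate 3 alone. Cd8b1, its partner chain, had 0.485, 0.561, 27.8 and 0.343 CPM in transferred fragments, against 0.376, 0.153, 0.454 and 0.109 CPM in deficient lesions (4.72 ± 1.03, adjusted p = 0.0691). Cd4, the co-receptor of helper T cells, had 32.1 CPM in transferred replicate 3 and 4.33 to 9.5 CPM in the other transferred libraries, against 3.92 to 7.20 CPM in deficient lesions (1.25 ± 0.58, adjusted p = 0.426). In the other transferred libraries Cd8b1 and Cd4 overlapped the deficient lesions, and Cd8a lay above them. Without replicate 3 the log2 fold change of Cd8a was 1.09 (adjusted p = 0.594). Of the 12 genes 4 lay above the deficient lesions in every transferred library, as 1.98% of all genes did. The summed list was also above them in every transferred library. Without replicate 3 the median of the 12 genes was 0.47 and none had an unadjusted p under 0.05. With replicate 3 kept and replicate 1, 2 or 4 left out, 10, 10 and 11 of them were called.

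Genes of cytotoxic lymphocytes, antigen presentation and interferon response were high in the same library. The 10 NK and cytotoxic genes summed to 187 CPM in transferred replicate 3 and to 8.93 to 11.4 CPM in the other transferred libraries, against 4.99 to 14.8 CPM in deficient lesions. Tbx21, the transcription factor of type 1 lymphocytes, had 1.05, 0.673, 15 and 1.19 CPM in transferred fragments, against 0.620, 0.337, 0.534 and 0.586 CPM in deficient lesions (3.09 ± 0.77, adjusted p = 0.0963). Without replicate 3, the remaining transferred libraries were 0.673 to 1.19 CPM. The 7 MHC class II genes summed to 5881 CPM in transferred replicate 3 and to 810 to 1190 CPM in the other transferred libraries, against 470 to 1064 CPM in deficient lesions. All 7 were higher at an unadjusted p under 0.05, as 6.48% of all genes were, and none was called. Ciita, the master regulator of MHC class II, differed by 1.66 ± 0.44 (adjusted p = 0.106). The 16 interferon-response genes summed to 2112 CPM in transferred replicate 3 and to 408 to 461 CPM in the other transferred libraries, against 234 to 766 CPM in deficient lesions. Replicate 3 led in all 3 lists. The T cell chemokine Cxcl10 had 6.43, 4.46, 83.7 and 3.83 CPM in transferred fragments, against 2.86, 1.93, 1.12 and 2.80 CPM in deficient lesions (3.49 ± 0.94, adjusted p = 0.106). Gbp2, a guanylate-binding protein induced by interferon-gamma, had 668 CPM in transferred replicate 3 and 37.9 to 40.3 CPM in the other transferred libraries, against 24.1 to 39.5 CPM in deficient lesions (2.64 ± 0.67, adjusted p = 0.0991). Members of the list were not alike. Isg15 and Oas2, which type I interferon induces strongly, differed by 0.33 ± 0.47 and -0.26 ± 0.39 (adjusted p = 0.845 and 0.848). Without replicate 3 the medians of the NK, MHC class II and interferon lists were -0.06, 0.38 and 0.09, with none of their members called. With replicate 3 kept and replicate 1, 2 or 4 left out, 3, 3 and 3 NK genes, 0, 4 and 5 MHC class II genes and 1, 2 and 2 interferon-response genes were called. Without replicate 1 these included Tbx21 (3.42, adjusted p = 0.038) and Gbp2 (2.98, adjusted p = 0.0314). Against the second deficient group the T cell, NK, MHC class II and interferon lists had medians of 2.25, 1.28, 0.82 and 1.15. There 11 of 12, 4 of 10, 2 of 7 and 14 of 16 members were higher at an unadjusted p under 0.05, and none was called. Of all 21249 genes 1533 had such a p in either direction, and 495 without replicate 3.

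**Figure D5:**
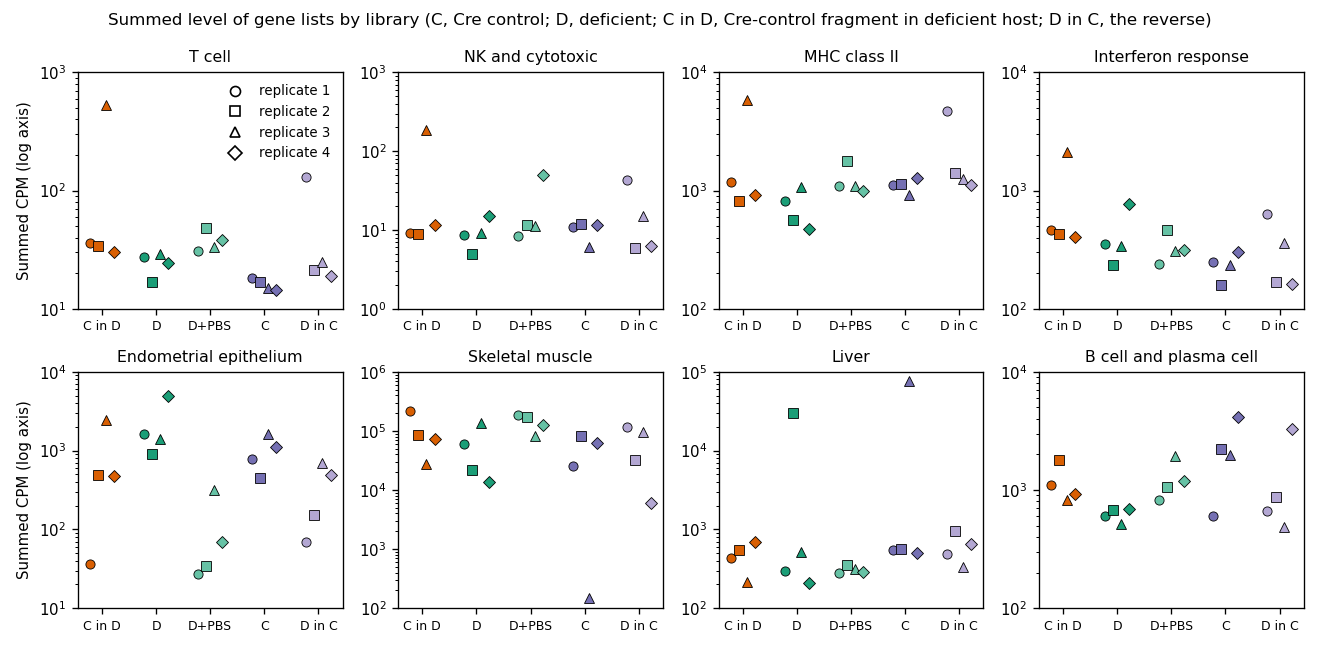
Summed CPM (log axis) of 8 gene lists in each library of 5 IL-33-treated groups with n = 4 each. Transferred replicate 3 is the highest of its group for T cell (528 CPM), NK and cytotoxic (187 CPM), MHC class II (5881 CPM) and interferon-response genes (2112 CPM), and transferred replicate 1 the lowest for endometrial epithelium (36.3 CPM).

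None of the B cell and plasma cell genes passed the test. Of 11 measured 6 lay above the deficient lesions in every transferred library (1.98% of all genes did), 4 were higher at an unadjusted p under 0.05 (6.48% of all genes), and the median log2 fold change was 1.18. Pax5, the B cell identity factor, had 9.27, 2.89, 7.52 and 5.65 CPM in transferred fragments, against 0.952, 1.35, 1.23 and 1.5 CPM in deficient lesions (2.33 ± 0.68, adjusted p = 0.145). Cd79a, a chain of the B cell receptor, had 5.39, 2.67, 4.29 and 3.32 CPM in transferred fragments, against 0.554, 0.643, 1.12 and 1.11 CPM in deficient lesions (2.19 ± 0.70, adjusted p = 0.188). Without replicate 3 the median of the list was 1.37. Against the second deficient group it was -0.06, with Pax5 at 0.35 and Cd79a at 0.29, and that group had 3.84 to 6.77 CPM of Pax5.

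Clock genes lay to both sides. Of 15 measured, none was called, 3 were higher and 5 lower at an unadjusted p under 0.05 (6.48% and 4.49% of all genes). Per3, a repressor of the clock, had 32.5, 25.3, 16.8 and 27.3 CPM in transferred fragments, against 43.5, 44, 60.6 and 34.3 CPM in deficient lesions (-0.84 ± 0.19, adjusted p = 0.0707). Dbp, a clock-driven transcription factor, had 14.6, 11.1, 8.13 and 13.4 CPM in transferred fragments, against 32.0, 24.3, 39.7 and 14.9 CPM in deficient lesions (-1.23 ± 0.28, adjusted p = 0.0707). Both are output or feedback genes of the clock. Arntl, the activator that runs in antiphase to both, had 52.2, 43.6, 36.8 and 42.4 CPM in transferred fragments, against 24.2, 28.9, 27.2 and 31.7 CPM in deficient lesions (0.64 ± 0.15, adjusted p = 0.0843). The groups were separate for all 3 genes, where 1.98% of all genes were separate and higher and 1.75% separate and lower. Without transferred replicate 1, Per3 (-0.98, adjusted p = 0.0243) and Dbp (-1.35, adjusted p = 0.038) were called, among 4 clock genes called lower. Without replicate 2 or 4, 1 and 2 clock genes were called lower, and without replicate 3 none. Against the second deficient group the 3 differences were -0.30, -0.23 and -0.30, and Arntl was called between the 2 deficient groups (0.95, higher in the group given added PBS). The hour of collection is not given in the labels, so its part was not tested.

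Genes of the uterine tissues did not pass the test. Of 17 epithelial genes none was called in either direction, with a median log2 fold change of -1.17 and 1 positive value among the 17. Krt19 had 3.52, 33.8, 230 and 44.6 CPM in transferred fragments, against 111, 47.4, 32.8 and 398 CPM in deficient lesions (-0.92 ± 0.91, adjusted p = 0.769). Against the second deficient group, which held 0.002% to 0.033% of counts in epithelial genes, the median of the same list was 3.09. Of 12 estrogen-response genes 5 were lower at an unadjusted p under 0.05 (4.49% of all genes were), none was called, and the median was -1.26. Against the second deficient group the median of this list had the other sign, at 0.36, with 10 of 12 values positive. Pgr, the progesterone receptor, had 21.2, 47.9, 76.2 and 137 CPM in transferred fragments, against 191, 381, 95.9 and 353 CPM in deficient lesions (-1.85 ± 0.91, adjusted p = 0.454). Igf1, a growth factor induced by estrogen in the uterus, had 258, 282, 140.6 and 237 CPM in transferred fragments, against 329, 677, 297 and 375 CPM in deficient lesions (-0.87 ± 0.30, adjusted p = 0.233). The value of 677 CPM is that of deficient replicate 2, which held 3.26% of its counts in liver genes. The groups were separate for Igf1 and overlapped for Pgr, and 3 estrogen-response genes lay below the deficient lesions in every transferred library, as 1.75% of all genes did. The epithelial share of counts was 0.003% to 0.280% in transferred fragments and 0.097% to 0.549% in deficient lesions. Among transferred fragments Igf1 was lowest in replicate 3, where the share was highest. Deficient replicate 4, with the highest share of all 8 libraries, had 375 CPM of Igf1. The part of the epithelial share in the differences was not tested. The 10 stromal, 18 matrix, 10 smooth muscle and 16 skeletal muscle genes had no call and medians of -0.38, -0.03, -0.07 and 0.79.

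Of the remaining cell types, mast cell and neutrophil genes had medians of opposite sign without a call. Fcer1a, a chain of the high-affinity IgE receptor, had 0.281, 0.202, 0.183 and 0.448 CPM in transferred fragments, against 1.79, 1.29, 0.667 and 0.695 CPM in deficient lesions (-1.98 ± 0.61, adjusted p = 0.172). The groups were separate, as they were for 1.75% of all genes in that direction. The median of 10 mast cell and basophil genes was -0.71. The median of 11 neutrophil genes was 0.87, with Csf3r, the receptor for granulocyte colony-stimulating factor, at 0.71 ± 0.30 (adjusted p = 0.371). Their summed CPM did not show that rise, at 354 to 1164 in transferred fragments against 516 to 2961 in deficient lesions. In all, 379 genes of 34 lists were measured and none was called in the comparison. Without transferred replicate 1, Nos2, an inflammatory enzyme, was called (3.07, adjusted p = 0.0429), as were Icam2 (0.78, adjusted p = 0.042), Ctla4 (2.62, adjusted p = 0.0429) and Klrk1 (3.03, adjusted p = 0.0429), while no ILC2, B cell, epithelial or estrogen-response gene was. The liver list had a median of -5.08, beside the liver share of 3.26% in deficient replicate 2. Without the libraries that held liver transcripts 2 genes were called, Ffar4 and Gm21451.

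The fragment's genotype was also compared in hosts with ILC2s, in 8 other libraries: Cre-control lesions against deficient fragments in Cre-control hosts. Cre-control replicate 3 held 6.90% of its counts in liver genes and 0.014% in skeletal muscle genes. It enters this comparison, the difference between hosts and all Cre-control means given here. In this comparison 1487 genes had an unadjusted p under 0.05, and 515 without the libraries that held liver transcripts. One gene was called (0.00471% of 21249), the line-tracking pseudogene Gm7993, which averaged 0.0739 CPM in Cre-control lesions and had 0.109, 0.704, 1.33 and 2.12 CPM in deficient fragments in Cre-control hosts (log2 fold change -3.79, adjusted p = 0.000927). No gene was called in both hosts. Replicate 1 of the deficient fragments, which lay beside the Cre controls in line-tracking transcripts, enters this comparison. Without it 3 genes were called, all lower. In deficient hosts Gm7993 had 7.30, 4.85, 4.26 and 4.04 CPM in transferred fragments, against 6.93, 5.79, 7.74 and 7.77 CPM in deficient lesions (-0.47 ± 0.42, adjusted p = 0.743). Il5 and Il13 averaged 1.21 and 2.51 CPM in Cre-control lesions, against 1.12 and 1.80 CPM in deficient fragments in Cre-control hosts, and neither was called.

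The fragment effect in deficient hosts minus that in competent hosts differed for 88 genes (0.414%), 81 higher (0.381%) and 7 lower (0.0329%). This difference equals the sum of both transferred groups minus the sum of both groups that stayed in their own line, so transfer as such enters it. It was higher for 9 of the 12 T cell genes, 2 NK genes and 2 interferon-response genes, and Cd8a gave 8.19 (adjusted p = 0.0113). In these genes a transferred library stood high on each side: the T cell list summed to 528 CPM in transferred replicate 3 in a deficient host, and replicate 1 of the deficient fragments in Cre-control hosts held 0.012% of its counts in T cell genes, against 0.002% to 0.003% in the 3 others. The count rested on single libraries of all 4 groups. It was 150, 227, 4 and 264 without replicates 1 to 4 of the fragments in deficient hosts, and 6, 3, 36 and 9 without those of the deficient lesions. It was 4 and 142 without replicates 1 and 3 of the fragments in Cre-control hosts, and 5, 7, 3 and 15 without those of the Cre-control lesions. Ffar4 gave -2.54 (adjusted p = 0.000664).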

How the data were processed

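The study measured RNA of snap-frozen whole lesions, and the authors deposited raw counts for 21249 genes in 41 libraries. The submitters' processing notes name Trimmomatic, STAR, HTSeq, edgeR and limma, and genome build GRCm38. Versions, strand setting and annotation are not given in the sources used here, so overlapping and antisense genes cannot be separated. No gene had fewer than 411 counts over the 41 libraries.

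Groups came from the sample titles. A single edgeR 4.0.16 model (R 4.3.3) of 11 group means was fitted over 41 libraries, since groups of 4 gain from a shared estimate of spread, with TMM scaling, robust quasi-likelihood F-tests (two-sided) and Benjamini-Hochberg adjustment over all genes at 0.05. No gene failed filterByExpr. Standard errors were obtained as the size of the log2 fold change over the root of its F statistic. The procedure was also run on simulated counts with known changes. These held no libraries that stand apart in tissue makeup, so the run does not bear on how the calls depend on single libraries. Positions are from GENCODE M21 on GRCm38, which held 20817 of the symbols.

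Libraries of 1 group differed by more than sampling noise in all 30 pairs compared (chi-square per degree of freedom 20.3 to 719). The labels do not say that replicates are separate mice, and p-values therefore reflect only how far these samples vary, part of which may be technical. Transcripts near 0.1 CPM rest on a few counts per library.

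Named genes were the called genes, a panel of 16 genes around Id2, ILC2s and their targets, called neighbours of Id2, and the 2 members of lowest p in each of 34 lists. Members, lists and the rule for line-tracking transcripts were chosen with earlier results of these data known. Line-tracking transcripts and Satb1, Cd4, Il17rb, Ccl17, Isg15, Oas2, Alox15 and Arntl fall outside that rule and were named after their values were seen. Alternatives were other scalings and filters, DESeq2 1.42.0, limma-voom 3.58.1, a replicate block, and libraries left out.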

Additional observations from a re-analysis of the deposited data

Results flagged for a closer look

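In groups of 4 libraries, a value was set aside where its gap to the next took more of the group's range than Dixon's 95% limit allows. For independent, normally distributed values chance does this in about 1 of 20 groups. The values here are unlogged CPM of genes and lists from the same libraries, so the count below cannot be set against that rate. Of 74 groups examined 13 had such a value, 9 of them in transferred replicate 3. In that library Il1rl1 had 17 CPM, Gata3 14.4 CPM, Klrg1 4.38 CPM and Chil3 334 CPM. Its summed lists were 528 CPM for T cell, 187 CPM for NK and cytotoxic, 5881 CPM for MHC class II, 2112 CPM for interferon-response and 143 CPM for eosinophil genes, of which Alox15 made 130 CPM. Among deficient lesions, replicate 3 stood apart for 5730507C01Rik (0.294 CPM) and Gm36931 (1.68 CPM), and replicate 2 for Tspoap1 (2.67 CPM) and for the liver list (30283 CPM).

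For 17 named genes the fragment effect in deficient hosts differed from that in competent hosts by the interaction test of edgeR (adjusted p under 0.05). Among the called genes the differences on the log2 scale were 8.10 for Gm21451 and 7.65 for Gm47357, both fitted against groups without counts, 5.27 for Gm15446, 2.53 for Gm36931, 2.03 for C230085N15Rik, 1.5 for Tspoap1 and -2.54 for Ffar4. Among lymphocyte, antigen-presentation and interferon genes they were 8.19 for Cd8a, 6.98 for Cd8b1, 5.49 for Tbx21, 1.98 for Flt3, 2.74 for Ciita, 4.46 for Gbp2, 6.11 for Cxcl10 and 4.85 for Nos2. The clock genes Per3 and Dbp gave -1.33 and -1.90.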

How the results depend on the processing

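The 10 calls between transferred fragments and deficient lesions numbered 10 also under other scalings, filters and dispersions, where upper-quartile scaling kept 9 of the same genes. By DESeq2, limma-voom and a fit of only the libraries compared they were 243, 1 and 0, and without the libraries with liver transcripts 2. Leaving out 1 library gave 3 to 185. Against the second deficient group (4) the same 3 settings gave 62, 0 and 0, leaving out 1 library 1 to 13, and leaving out transferred replicates 1 and 3 together, chosen after seeing the data, 8. In competent hosts (1) DESeq2, limma-voom and the libraries compared alone gave 11, 0 and 0, upper-quartile scaling 2, no liver libraries 3 and single libraries left out 1 to 3. The difference between hosts (88) became 342, 1 and 0, without liver libraries 1, without transferred replicates 1 and 3 together 5, and with single libraries left out 3 to 264. Between the 2 deficient groups (3) DESeq2 gave 768, the libraries compared alone 0, no liver libraries 163, liver, muscle, blood and mitochondrial genes left out 15, and single libraries left out 0 to 423. In the fits that called no gene, 1474, 971, 1021, 2755 and 4001 genes had an unadjusted p under 0.05 in the 8 or 16 libraries alone, and 834 and 748 by limma-voom.

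Replicate numbers do not pair the samples: deviations of same-numbered libraries correlated at 0.211, 0.0326, -0.452 and 0.0175. With a replicate block 8 genes were called, 2 against the second deficient group and 5 between hosts, and Col6a5 gave 0.030.

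Signs changed for Lep (0.068) and Cyp2e1 (0.073) by limma-voom, for Col6a5 (0.30) and Trf (0.044) without liver libraries, and for Klrg1 (-0.12) and Col6a1 (0.0082) without transferred replicates 1 and 3. With single libraries left out, log2 fold changes ran from -0.21 to 0.035 for Id2 (also 0.018), from -0.0033 to 1.09 for Klrg1, from -0.29 to 0.29 for Col6a5 (also 0.068), from -2.75 to 0.034 for Trf, from -2.58 to 2.77 for Lep and from -2.43 to 0.27 for Krt19. The cause was not tested. None of these genes was called between transferred fragments and deficient lesions.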
